A study of Mus musculus with 675 samples.

Results

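Rgs5-high smooth muscle cells were the 25% of aortic smooth muscle cells with the most Rgs5 on each plate, and they were set against the 25% with the least, the Rgs5-low cells of the same plate. A smooth muscle cell had at least 1000 CPM (a gene's count scaled to 1000000 counts in its cell) of Myh11, smooth muscle myosin heavy chain, at least 500 CPM of the contractile regulator Cnn1 and under 100 CPM of the endothelial gene Cdh5. Fewer than 2 of the fibroblast genes Dcn, Lum, Serpinf1 and Pi16 reached 100 CPM in it. The smooth muscle cells of a plate were ranked by Rgs5 and divided at the 25th, 50th and 75th percentiles into 4 bins. This rule took 548 of 675 cells, with 138 Rgs5-high cells (74 on plate aorta_594s and 64 on plate aorta_912s) and 138 Rgs5-low cells (74 and 64). The members were therefore chosen by measured Rgs5, and the levels of Rgs5 and of the other 7 rule genes are given as a description with no test.

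The cells came from male C57BL/6 mice aged 10 weeks and carried the tissue label aorta. Full-length cDNA of single sorted cells was amplified by Smart-seq2, and no mouse was treated or carried a mutation according to the labels. Each plate held cells of 1 pool of 2 mice, a different pool on each plate, so plate and mice are 1 factor and the comparison has 2 replicates. The labels' protocol describes dissociation of the heart, and no source used here gives the sort gate.

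RGS5 is a GTPase-activating protein for the Gi and Gq classes of G protein alpha subunits, and it shortens signalling from the receptors that use them. In arteries those include receptors for angiotensin II and endothelin, which make smooth muscle contract. Rgs5 is widely used as a marker of pericytes, the mural cells of capillaries, and it is also made by arterial smooth muscle. Rgs5 (ENSMUSG00000026678) lies on chromosome 1 at 169655501 to 169695813 on the plus strand of GRCm38.

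Promoter windows of 250 bases before to 50 bases after a gene's start were held by RefSeq on GRCm38.p6 for 10 of 17 genes, which are Rgs5 and the 16 genes taken by rule, 14 of them described below. The windows of Rgs5 (chr1:169655251-169655550, plus strand) and of Cxcl12 (chr6:117168285-117168584, plus strand), the gene of a chemokine that was higher in Rgs5-high cells, are shown because their motif content differs. Capitals mark CANNTG in Rgs5 and GGGCGG or its complement in Cxcl12, searched on both strands.
Rgs5: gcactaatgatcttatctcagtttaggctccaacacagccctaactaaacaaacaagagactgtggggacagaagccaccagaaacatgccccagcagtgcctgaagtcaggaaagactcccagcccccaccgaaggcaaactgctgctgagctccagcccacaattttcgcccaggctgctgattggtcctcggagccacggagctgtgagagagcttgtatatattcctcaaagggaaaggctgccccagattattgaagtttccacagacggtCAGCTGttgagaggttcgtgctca
Cxcl12: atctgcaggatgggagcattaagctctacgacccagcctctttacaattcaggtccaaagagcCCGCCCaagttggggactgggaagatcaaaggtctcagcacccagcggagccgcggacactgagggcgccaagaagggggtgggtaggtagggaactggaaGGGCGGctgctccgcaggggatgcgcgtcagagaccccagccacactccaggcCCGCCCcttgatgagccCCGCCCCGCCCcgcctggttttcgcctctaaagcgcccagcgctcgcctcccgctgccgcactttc
The Rgs5 window held the E-box CANNTG once, 26 bases after the start, and had no match to the TATA box TATAAA, the SP1 box GGGCGG, the RBPJ motif TGGGAA or the CArG box of serum response factor. The Cxcl12 window held GGGCGG at 5 places, the last pair overlapping, the RBPJ motif once, and no E-box, TATA box or CArG box. Of 32851 windows, 72.3% held the E-box, 35.7% the SP1 box, 25.6% the RBPJ motif, 13.6% the TATA box and 1.63% the CArG box, and a match is a description of the letters only.

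Rgs5 spread widely among cells that passed the same contractile gate. Rgs5-high cells held 462 to 7138 CPM on plate aorta_594s, with a median of 1726, and 283 to 4416 CPM on plate aorta_912s, with a median of 865. Rgs5-low cells held 0 to 7.04 CPM on plate aorta_594s, with a median of 3.59, and 0 to 8.93 CPM on plate aorta_912s, with a median of 3.71, which is at most 3 and 5 counts in a cell. No Rgs5 count was found in 26 of 74 and 13 of 64 Rgs5-low cells. Rgs5-high cells held 91.1% of all Rgs5 counts of the smooth muscle cells of plate aorta_594s and 85.2% of those of plate aorta_912s. Rgs5 reached 100 CPM in 42.4% of the smooth muscle cells of plate aorta_594s (exact 95% interval 36.7 to 48.2%) and in 41.5% of those of plate aorta_912s (35.4 to 47.8%). These intervals cover counting error only.

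**Figure D1:**
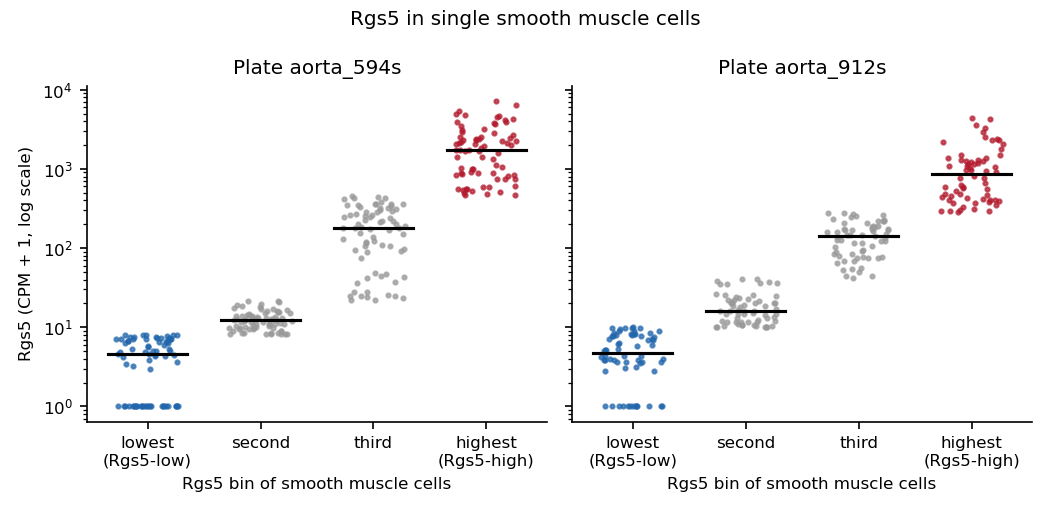
Rgs5 in each smooth muscle cell (CPM with 1 added, log scale) by bin of the Rgs5 ranking on plates aorta_594s and aorta_912s. Each point is 1 cell and each bar a median, with medians of 1726 and 865 CPM in Rgs5-high cells (red) and 3.59 and 3.71 CPM in Rgs5-low cells (blue).

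At the edges of the rule, the lowest Rgs5-high cells had 462 and 283 CPM, and the highest cells just below them had 459 and 278 CPM on plates aorta_594s and aorta_912s. The highest Rgs5-low cells had 7.04 and 8.93 CPM, and the next cells above had 7.10 and 8.93 CPM. Cells with at least 2 fibroblast genes at 100 CPM and under 1000 CPM of Myh11 had a median of 11.6 CPM Rgs5 on plate aorta_594s and 16.9 CPM on plate aorta_912s, from cells of 147370 and 141164.5 counts at the median. The Rgs5-low cells all lay below these Rgs5 medians of cells of another type. The bin above them had medians of 11.3 and 14.9 CPM, also below, but ran up to 20.7 and 39.7 CPM. No order of expression is read within or between these bins.

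The groups were close in depth. The median count per cell was 292691 and 297618 in Rgs5-high cells and 301504 and 343849 in Rgs5-low cells of plates aorta_594s and aorta_912s, and the sums used for testing held 19741157 to 23284845 counts. Myh11 stood at 4103 and 3557 CPM in the Rgs5-high sums and at 4204 and 3575 CPM in the Rgs5-low sums, and Cnn1 at 2255 and 2295 CPM against 2223 and 2323 CPM. Acta2, smooth muscle alpha actin, which was not part of the rule, stood at 6600 and 5741 CPM in Rgs5-high sums and at 6626 and 5482 CPM in Rgs5-low sums. Myh11 and Cnn1 were fixed by the rule, so of these genes only Acta2 bears on the smooth muscle label. Summed marker levels of endothelial cells were 132 and 79.6 CPM in Rgs5-high and 154 and 46.3 CPM in Rgs5-low sums over 9 genes, and those of Schwann and neural cells 965 and 719 CPM against 656 and 497 CPM over 6 genes, of which only Ncam1 reached 10 CPM. Markers of macrophages, T cells, B cells, mast cells, erythroid cells, adipocytes and mesothelium each summed to at most 38.8 CPM in any sum. Those of platelets summed to 53.9 and 28.5 CPM in Rgs5-high and 72.8 and 24.4 CPM in Rgs5-low sums, and those of cardiomyocytes to 70.6 and 28.8 CPM against 35.8 and 74.3 CPM. Of the defining immune genes, Adgre1 and Cd3e were at 0 in all sums. The part of other cells in the differences below was not tested.

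With the plate as a block, no gene passed the test between Rgs5-high and Rgs5-low cells. Of 14991 genes tested with edgeR's quasi-likelihood test, 0% passed a Benjamini-Hochberg adjusted p of 0.05 in either direction, and the smallest edgeR adjusted p was 0.36. At an unadjusted p under 0.05, 431 genes (2.88%) were higher and 396 (2.64%) lower in Rgs5-high cells, and 51.3% of genes had the same sign on both plates. The median log2 difference over all genes was -0.00017. DESeq2 called 65 genes higher and 47 lower on the same sums, and in 54 of these 112 a single cell held at least 50% of the gene's counts in the higher group of a plate. limma called 0. When every cell was thinned to 50000 counts before ranking and summing, so that each cell weighed alike, edgeR called 7 genes higher and 5 lower. The thinned cells were ranked anew by their thinned Rgs5 counts, with ties at the percentiles included. Low thinned counts tie in many cells, so these groups can be larger and hold other cells than the Rgs5-high and Rgs5-low groups. All 12 genes called in thinned cells were also among the DESeq2 calls. With 2 plates an exact permutation test cannot reach 0.05. As the plate is a block, the edgeR p-values rest on how the high-low difference varies between these 2 pools, not on their difference in level.

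The 8 genes named by rule as higher in Rgs5-high cells were Gpx3, Actg2, Cxcl12, Sfrp2, Ncam1, Fibin, Mfap5 and Tnc, and none was called by edgeR on all counts. Actg2, the gamma actin of enteric smooth muscle (chromosome 6, 83512905 to 83536265), stood at 1034 and 1280 CPM in Rgs5-high sums and at 688.5 and 804.1 CPM in Rgs5-low sums of plates aorta_594s and aorta_912s. The means were 1157 ± 174 CPM in Rgs5-high and 746 ± 81.7 CPM in Rgs5-low sums (SD, n = 2 plates each). The groups did not overlap, but the share of all genes without overlap was not counted, so this is a description only. The log2 difference was 0.62 (SE 0.07, n = 2 plates) and the edgeR adjusted p was 0.588. By Rgs5 bin, of which the lowest pair is not ordered by Rgs5 above background, Actg2 stood at 688.5, 848, 917 and 1034 CPM from low to high on plate aorta_594s and 804.1, 948, 1102 and 1280 CPM on plate aorta_912s. Among Rgs5-high cells it was at 1090 CPM in those above their median Rgs5 and 969 CPM in those below it on plate aorta_594s, and at 1281 and 1279 CPM on plate aorta_912s. Actins are near-identical in coding sequence, and no source used here says how reads that fit several of them were counted.

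Cxcl12 (chromosome 6, 117168535 to 117181367), the ligand of the receptor Cxcr4, had 134 and 155 CPM in Rgs5-high sums and 39.5 and 60.8 CPM in Rgs5-low sums, a log2 difference of 1.55 (SE 0.20; edgeR adjusted p 0.64). Its groups did not overlap, which is again a description only, and a minority of cells carried it. At 100 CPM or more it was found in 23 of 74 and 24 of 64 Rgs5-high cells and in 9 of 74 and 18 of 64 Rgs5-low cells. Tnc, the matricellular protein tenascin-C, had 175 and 63.3 CPM in Rgs5-high sums and 68.6 and 30.2 CPM in Rgs5-low sums, a log2 difference of 1.20 (SE 0.21). The Tnc groups overlapped across plates, while each plate kept the order. Of Rgs5-high cells, 47 carried Cxcl12 and 47 carried Tnc at 100 CPM, and 15 carried both.

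Ncam1, neural cell adhesion molecule, had 958 and 719 CPM in Rgs5-high sums and 655 and 495 CPM in Rgs5-low sums, and 70 of 74 and 61 of 64 Rgs5-high cells carried it at 100 CPM, as did 69 of 74 and 59 of 64 Rgs5-low cells. Fibin, a secreted protein named for its part in zebrafish fin bud initiation, had 280.5 and 267 CPM in Rgs5-high sums and 149.6 and 149.6 CPM in Rgs5-low sums. Mfap5, a glycoprotein of elastic microfibrils, had 572 and 673 CPM in Rgs5-high sums and 389.5 and 409.6 CPM in Rgs5-low sums. Sfrp2, a secreted modulator of Wnt signals, had 527 and 651 CPM in Rgs5-high sums and 316 and 429 CPM in Rgs5-low sums. The log2 differences of these 4 genes were 0.53 for Ncam1, 0.86 for Fibin, 0.63 for Mfap5 and 0.66 for Sfrp2. Ncam1, Fibin, Actg2 and Cxcl12 were among the 7 genes called higher by edgeR in thinned cells, with adjusted p of 0.0237 for Ncam1, Actg2 and Cxcl12 and 0.042 for Fibin. Sfrp2, Ncam1 and Tnc overlap an annotated gene on the opposite strand, and whether the counting used strand is not given.

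Gpx3, the secreted glutathione peroxidase, had a count in 27.0 and 57.8% of Rgs5-high cells and in 45.9 and 51.6% of Rgs5-low cells. It reached 100 CPM in 2 Rgs5-high cells of plate aorta_594s and 1 of plate aorta_912s. It stood at 113 and 72.0 CPM in Rgs5-high sums and at 3.18 and 3.52 CPM in Rgs5-low sums, a log2 difference of 4.74 (SE 0.37). One cell held 57.1% of the Rgs5-high counts of plate aorta_594s and another 93.9% of those of plate aorta_912s. Without the 2 cells described below that carried the pericyte gene Vtn, the log2 difference of Gpx3 was 2.39, and under a stricter smooth muscle rule it was -0.20.

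**Figure D2:**
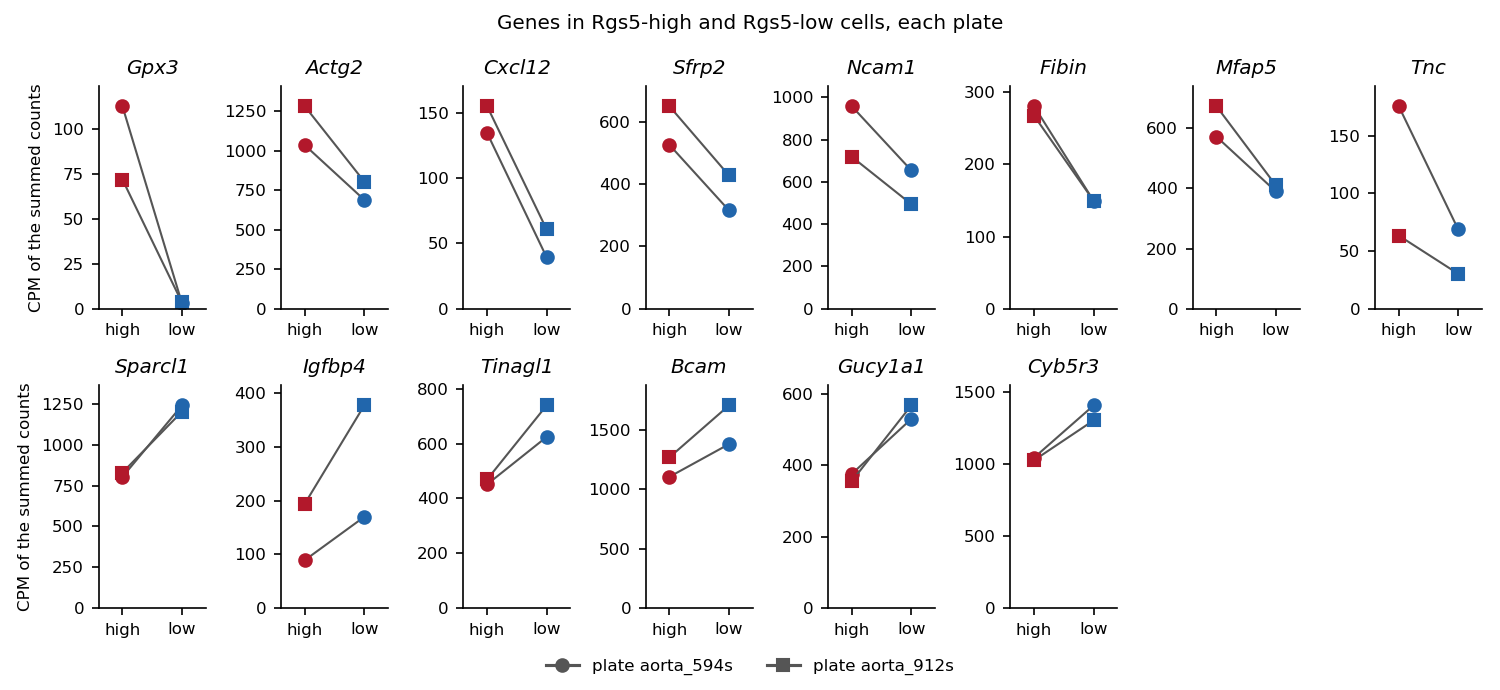
CPM of summed counts in Rgs5-high (red, left) and Rgs5-low cells (blue, right) for 14 of the 16 genes named by rule, with the upper row higher and the lower row lower in Rgs5-high cells. Each line joins the 2 sums of a plate, as for Actg2 with 1034 and 1280 CPM against 688.5 and 804.1 CPM. The rule took only genes with the same sign on both plates, so the shared slope of a row's lines was fixed by the choice.

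The genes named as lower in Rgs5-high cells and described here were Sparcl1, Igfbp4, Tinagl1, Bcam, Gucy1a1 and Cyb5r3, and none was called by edgeR on all counts. Gucy1b1 is given beside Gucy1a1 as its partner and was not named by the rule. Gucy1a1 (chromosome 3, 82092427 to 82145789), the alpha subunit of the nitric oxide receptor guanylate cyclase, had 375 and 355 CPM in Rgs5-high sums and 529 and 567 CPM in Rgs5-low sums. Its log2 difference was -0.60 (SE 0.09; edgeR adjusted p 0.819). Gucy1b1, the beta subunit of the same enzyme, had 209 and 198 CPM in Rgs5-high sums and 236 and 284 CPM in Rgs5-low sums, with a log2 difference of -0.36 (SE 0.14). Cyb5r3, a reductase that keeps the haem of this cyclase in its nitric oxide-sensitive state, had 1046 and 1028 CPM in Rgs5-high sums and 1409 and 1305 CPM in Rgs5-low sums.

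Bcam, a laminin receptor, had 1105 and 1269 CPM in Rgs5-high sums and 1380 and 1706 CPM in Rgs5-low sums. Tinagl1, a secreted protein of basement membranes, had 451 and 469 CPM in Rgs5-high sums and 624 and 739 CPM in Rgs5-low sums. Sparcl1, a matricellular relative of Sparc, had 803 and 830 CPM in Rgs5-high sums and 1241 and 1203 CPM in Rgs5-low sums, a log2 difference of -0.59 (SE 0.07). Sparcl1 was called lower by edgeR in thinned cells (adjusted p 0.0313). Igfbp4, which binds insulin-like growth factors, had 89.1 and 194 CPM in Rgs5-high sums and 170 and 378 CPM in Rgs5-low sums. Its groups overlapped across plates, while each plate kept the order.

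Sncg, gamma-synuclein, was found in a minority of cells. Sncg, chosen after values were seen, had 9.30 and 38.8 CPM in Rgs5-high sums and 133 and 135 CPM in Rgs5-low sums, a log2 difference of -2.81 (SE 0.53), and it was called lower by edgeR in thinned cells (adjusted p 0.0237). At 100 CPM or more, Sncg was found in 11 of 138 Rgs5-high and 40 of 138 Rgs5-low cells, and the adhesion molecule Vcam1 in 5 and 19 of them.

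The shares of carrying cells through the bins are given as a description, for genes most of which were chosen after values were seen. From the lowest to the highest Rgs5 bin, Sncg was at 100 CPM in 28.4, 21.6, 15.1 and 4.05% of the cells of plate aorta_594s and in 29.7, 28.6, 19.4 and 12.5% of those of plate aorta_912s. Vcam1 was in 11, 3, 3 and 3 cells of plate aorta_594s and in 8, 2, 3 and 2 cells of plate aorta_912s. The lowest pair of bins is not ordered by Rgs5 above background, so the difference between them is not read. Itga5, the alpha subunit of the fibronectin receptor, was in 64.9, 59.5, 71.2 and 41.9% of the cells of plate aorta_594s and in 84.4, 87.3, 82.3 and 59.4% of those of plate aorta_912s, with the highest bin standing apart.

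**Figure D3:**
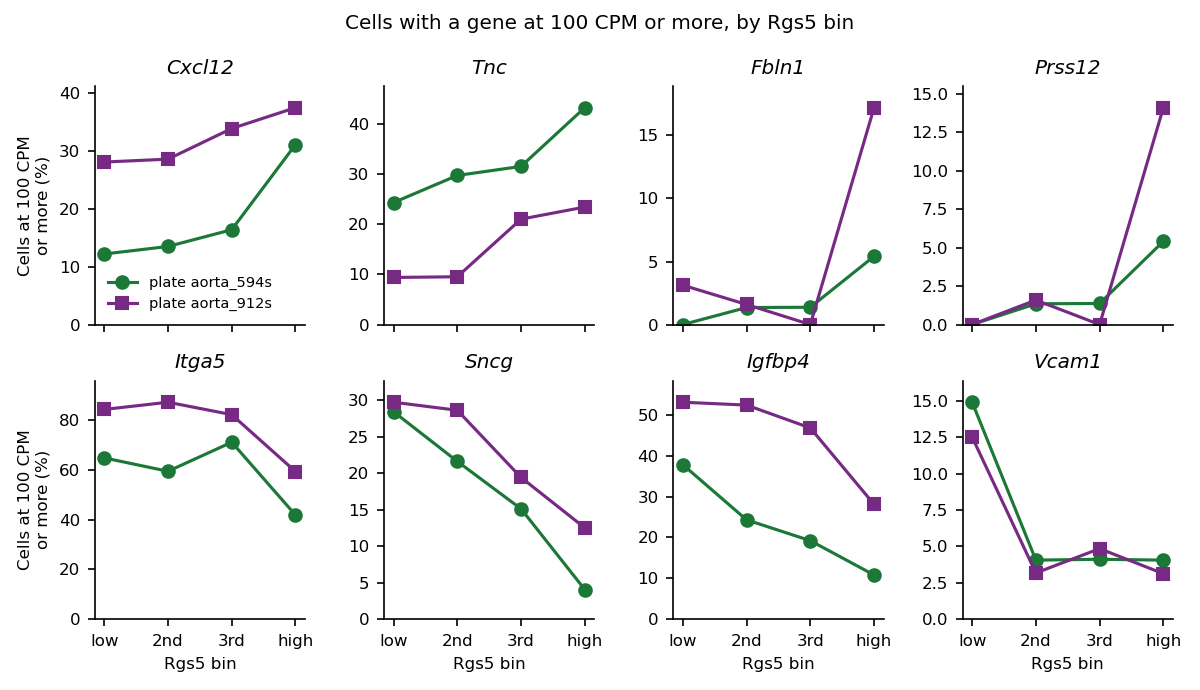
Share of smooth muscle cells with at least 100 CPM of a gene, in percent, by Rgs5 bin from lowest to highest, for plates aorta_594s and aorta_912s. Prss12 was in 5.41 and 14.1% of Rgs5-high cells and in 0% of Rgs5-low cells on both plates, while Sncg was in 4.05 and 12.5% of Rgs5-high and in 28.4 and 29.7% of Rgs5-low cells.

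A small set of Rgs5-high cells carried Prss12 and shared other genes. Prss12 (chromosome 3, 123446913 to 123506597), the secreted serine protease neurotrypsin, chosen after values were seen, reached 100 CPM in 13 of 138 Rgs5-high cells and in 0 of 138 Rgs5-low cells, which allows a share of up to 2.17% of cells. The 13 cells were 4 of plate aorta_594s and 9 of plate aorta_912s, and 16 of all 548 smooth muscle cells passed this level. They held 1020 to 4416 CPM of Rgs5, and 3596 CPM of Myh11 and 6210 CPM of Acta2 at the mean, beside 4019 and 6677 CPM in the other 125 Rgs5-high cells. Their median depth was 215632 counts, beside 303442 in the others.

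These 13 cells were picked after values were seen, by a measured gene, so what follows is a description with no test. Of the 13, 10 carried Fbln1, fibulin-1 of the extracellular matrix, at 100 CPM or more, 12 carried the laminin chain Lamc3 and 11 the Wnt antagonist Frzb. In the other 125 Rgs5-high cells these genes reached 100 CPM in 5, 27 and 18 cells. The mean level of Lamc3 was 859 CPM in the 13 cells and 78.5 CPM in the others, and that of Frzb 680 and 56.7 CPM. Adamtsl1, a secreted matrix protein, was at 350.1 CPM in the 13 cells and 4.64 CPM in the others. Mfap5 was at 1842 and 507.5 CPM, and Sfrp2 at 1453 and 467 CPM.

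The same 13 cells were lower in other genes than the remaining Rgs5-high cells. Postn, the matricellular protein periostin, averaged 126 CPM in them and 1763 CPM in the other Rgs5-high cells. Ccdc3, a secreted protein, averaged 68.8 and 1308 CPM, Kcnab1, a beta subunit of voltage-gated potassium channels, 8.49 and 251 CPM, and the calcium store protein Casq1 6.12 and 258 CPM. Bcam averaged 185 and 1268 CPM, Mcam, a surface marker of mural cells, 114 and 832 CPM, and Tinagl1 66.6 and 468 CPM. Tnc averaged 1.30 and 143 CPM, and 0 of the 13 reached 100 CPM of it. Without the 13 cells, chosen after seeing the data, the edgeR log2 difference between Rgs5-high and Rgs5-low cells was 0.42 for Mfap5 and 0.45 for Sfrp2, with 0.63 and 0.66 in all cells. It was 0.67 for Actg2, 0.50 for Ncam1, 1.37 for Cxcl12 and 1.32 for Tnc, and edgeR called 0 genes. Of the 13 cells, 2 carried a fibroblast gene and 3 carried Pecam1 at 100 CPM, and 0 carried Vtn.

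**Figure D4:**
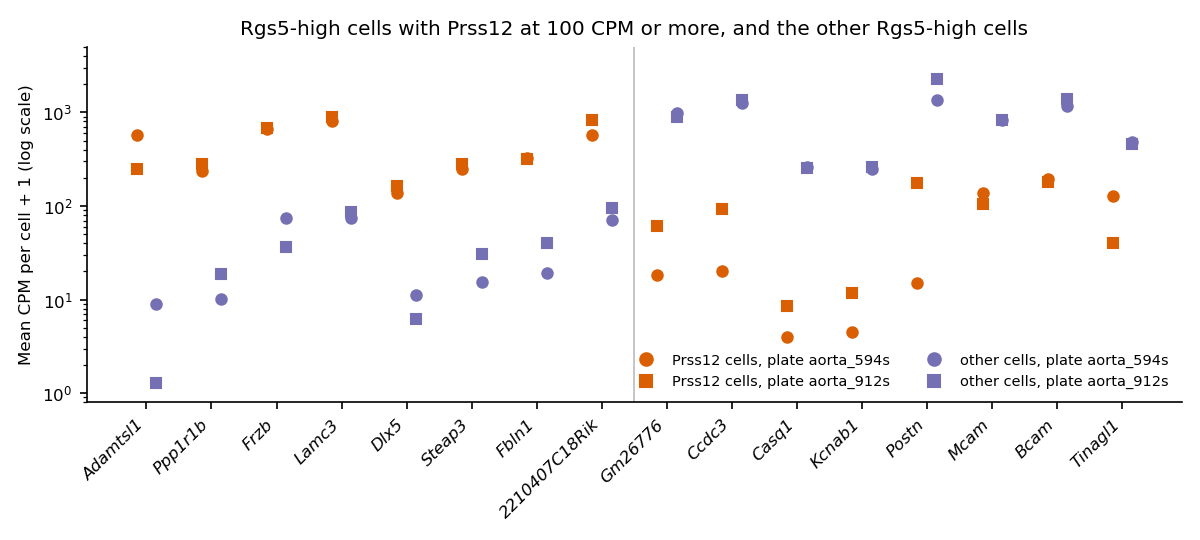
Mean CPM per cell with 1 added (log scale) in the 13 Rgs5-high cells with at least 100 CPM of Prss12 (orange, left of each pair) and in the other 125 Rgs5-high cells (purple), by plate. The 8 genes on the left had the highest and the 8 on the right the lowest ratio, such as Lamc3 with 859 against 78.5 CPM and Postn with 126 against 1763 CPM.

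Genes of embryonic position were found in few cells and ran in both directions. Of 17 tested genes of the arch and outflow list, 6 were higher and 2 lower at an unadjusted p under 0.05. At that p, 2.88% of all genes were higher and 2.64% lower. Genes of the list pattern the pharyngeal arches and cardiac outflow tract, and the median log2 difference of those tested was 0.89. After adjustment edgeR called 0, on all counts and in thinned cells, and DESeq2 called Tfap2b, Dlx6 and Msx2 higher and Tbx1 lower. Msx2 had 22.9 and 9.88 CPM in Rgs5-high sums and 0.0870 and 0.129 CPM in Rgs5-low sums, from 4 and 1 cells at 100 CPM. Tfap2b had 17.3 and 4.20 CPM in Rgs5-high sums and 0.131 and 0.129 CPM in Rgs5-low sums, from 4 and 2 cells. Hand2 had 18.6 and 33.9 CPM in Rgs5-high sums and 46.7 and 53.4 CPM in Rgs5-low sums, and Tbx1 0.764 and 4.31 CPM against 19.8 and 16.9 CPM. At 100 CPM or more, Hand2 was in 3 and 7 Rgs5-high cells and in 12 and 17 Rgs5-low cells of the plates, and Tbx1 in 0 and 2 against 6 and 4. At least 1 of 5 genes chosen after values were seen for being higher in Rgs5-high cells, Msx2, Tfap2b, Dlx5, Dlx6 and Hoxb8, reached 100 CPM in 21 Rgs5-high and 2 Rgs5-low cells, and 10 of these 21 were Prss12 cells. Without the Prss12 cells the median of the arch and outflow list was 0.35, and it was 0.16 under a stricter smooth muscle rule. Of 14 tested Hox genes, 2 were higher and 0 lower at an unadjusted p under 0.05, with a median of 0.67 in all cells and 0.78 without the Prss12 cells. On both plates 9 were higher and 1 lower, where 51.3% of all genes had the same sign on both. After adjustment edgeR called 0 Hox genes, and DESeq2 called Hoxa7 and Hoxb8. Hoxb8 had 20.57 and 3.597 CPM in Rgs5-high sums and 0.0435 and 0.0430 CPM in Rgs5-low sums, from 4 and 1 Rgs5-high cells at 100 CPM.

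The mural and pericyte marker list gave 7 higher and 2 lower of 18 tested genes at an unadjusted p under 0.05, where 2.88% and 2.64% of all genes did so, and a median log2 difference of 0.08. After adjustment edgeR called 0 on all counts and Vtn in thinned cells (adjusted p 0.0237), and DESeq2 called Vtn, Ndufa4l2 and Rgs4. Kcnj8, the pore of the ATP-sensitive channel, had 118 and 97.7 CPM in Rgs5-high sums and 48.4 and 78.9 CPM in Rgs5-low sums, and its partner Abcc9 336 and 308 CPM against 213 and 276 CPM. Cox4i2, a lung-type subunit of cytochrome oxidase, had 47.1 and 34.0 CPM in Rgs5-high and 15.4 and 21.0 CPM in Rgs5-low sums. Ano1, a chloride channel, had 200 and 158 CPM in Rgs5-high and 129 and 120 CPM in Rgs5-low sums. Ndufa4l2 had 8.40 and 7.09 CPM against 0.174 and 0.387 CPM, with 64.2 and 87.9% of the Rgs5-high counts in 1 cell a plate. Of markers with an unadjusted p above 0.05, Pdgfrb stood at 239 and 233 CPM in Rgs5-high and 249 and 220 CPM in Rgs5-low sums, and Cspg4 at 482 and 431 CPM against 529 and 380 CPM. Notch3 had 60.7 and 31.1 CPM in Rgs5-high sums and 31.1 and 49.5 CPM in Rgs5-low sums, which turned round between plates. Heyl, a target of Notch signals, had 292 and 373 CPM in Rgs5-high sums and 373 and 529 CPM in Rgs5-low sums.

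Vtn and Higd1b, which define pericytes, were found in few cells of either group. Vtn reached 100 CPM in 2 of 138 Rgs5-high and 0 of 138 Rgs5-low cells, and Higd1b in 1 and 1. The Vtn cell of plate aorta_594s had 3716 CPM of Vtn, 4889 of Rgs5, 4067 of Gpx3 and 4441 of Myh11. The Vtn cell of plate aorta_912s had 1330 CPM of Vtn, 2282 of Rgs5, 4797 of Gpx3, 162 of Higd1b and 3313 of Myh11. These cells held 99.4 and 96.4% of the Vtn counts of the Rgs5-high sums, so the Vtn difference is that of 1 cell a plate. The summed level of the 11 pericyte markers was 1436 and 1259 CPM in Rgs5-high and 1171 and 1156 CPM in Rgs5-low sums. Outside the smooth muscle rule, 21 cells had at least 100 CPM of Rgs5, up to 15714 CPM, and 4 of them carried at least 2 of Vtn, Higd1b and Notch3.

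No gene of the RGS list or of the G protein list was called by edgeR, on all counts or in thinned cells, while DESeq2 called 1 gene, Rgs4. Of 11 tested RGS genes, 3 were higher and 0 lower at an unadjusted p under 0.05, with a median log2 difference of 0.61. At that p, 2.88% of all genes were higher and 2.64% lower. Rgs4, which acts on the same classes of G protein, had 254.5 and 207 CPM in Rgs5-high sums and 126 and 143.5 CPM in Rgs5-low sums, a log2 difference of 0.76 (SE 0.16; adjusted p 0.819 with edgeR and 0.0275 with DESeq2). Its groups did not overlap, which is a description only. Rgs7bp, which anchors RGS proteins at the membrane, had 182 and 132 CPM in Rgs5-high sums and 90.3 and 97.6 CPM in Rgs5-low sums. Rgs2 had 38.8 and 56.0 CPM against 37.3 and 53.0 CPM, and Rgs3 86.5 and 76.3 CPM against 64.0 and 72.4 CPM. Rgs6 was low throughout, with 7.41 and 1.57 CPM in Rgs5-high and 0.217 and 0.129 CPM in Rgs5-low sums.

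Of 34 tested G proteins and effectors, 0 were higher and 0 lower at an unadjusted p under 0.05, and the median was -0.0070. The shares over all genes at that p were 2.88% higher and 2.64% lower. Gnas had 1520 and 1397 CPM in Rgs5-high and 1332 and 1318 CPM in Rgs5-low sums, and Gnai2 609 and 389.7 CPM against 613 and 391 CPM. Of 32 vasoactive receptors, 3 were higher and 3 lower, with a median of 0.11. Ednra, the endothelin receptor of smooth muscle, had 46.6 and 37.6 CPM in Rgs5-high and 6.66 and 19.9 CPM in Rgs5-low sums, and 1 cell held 55.7% of its Rgs5-high counts on plate aorta_594s. F2r, the thrombin receptor, had 120 and 114 CPM in Rgs5-high and 67.4 and 77.4 CPM in Rgs5-low sums. Npy1r, a neuropeptide Y receptor, had 113 and 160 CPM in Rgs5-high and 177 and 239 CPM in Rgs5-low sums. Ramp1, Ramp2 and Npr1 had log2 differences of -0.19, 0.03 and 0.34.

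Of the contractile list, edgeR called 0 genes on all counts and Actg2 in thinned cells, and DESeq2 called Actg2. Of 35 tested contractile genes, 4 were higher and 2 lower at an unadjusted p under 0.05, with a median of -0.02. Over all genes, 2.88% were higher and 2.64% lower at that p. Synpo2, an actin-bundling protein, had 1082 and 1078 CPM in Rgs5-high and 787 and 969.5 CPM in Rgs5-low sums. Smtn, smoothelin, had 1762 and 2096 CPM in Rgs5-high and 2048 and 2254 CPM in Rgs5-low sums. Myl9, Flna and Dstn had log2 differences of 0.06, 0.01 and -0.04. Of 27 contractile gene regulators, 0 were higher and 1 lower, with a median of 0.15, and Myocd, the coactivator of the contractile programme, had 390 and 842 CPM in Rgs5-high and 462 and 831 CPM in Rgs5-low sums. Plates differed in Myocd by more than the groups did.

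Of 28 genes of cGMP, cAMP and RhoA tone control, 2 were higher and 3 lower at an unadjusted p under 0.05, with a median of -0.05. Of all genes, 2.88% were higher and 2.64% lower at that p. After adjustment edgeR called 0 genes of this list, and DESeq2 called Gucy1a1. The other lists of this paragraph are counted at the same unadjusted p, and neither edgeR nor DESeq2 called a gene of them. The guanylate cyclase subunits were lower, while Pde5a, which breaks cGMP down, had 196.5 and 129 CPM in Rgs5-high and 146.5 and 78.6 CPM in Rgs5-low sums. Of 15 potassium channel genes, 4 were higher and 0 lower, with a median of -0.04. Of 30 calcium genes, 4 were higher and 2 lower, with a median of 0.15, and Atp2a2, the calcium pump of the sarcoplasmic reticulum, had 669 and 445 CPM in Rgs5-high and 575 and 362 CPM in Rgs5-low sums. Of 13 caveola and gap junction genes, 0 were higher and 2 lower, with a median of -0.06, and Cav1, the main caveola protein, had 947 and 1135 CPM in Rgs5-high and 1142 and 1257 CPM in Rgs5-low sums.

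**Figure D5:**
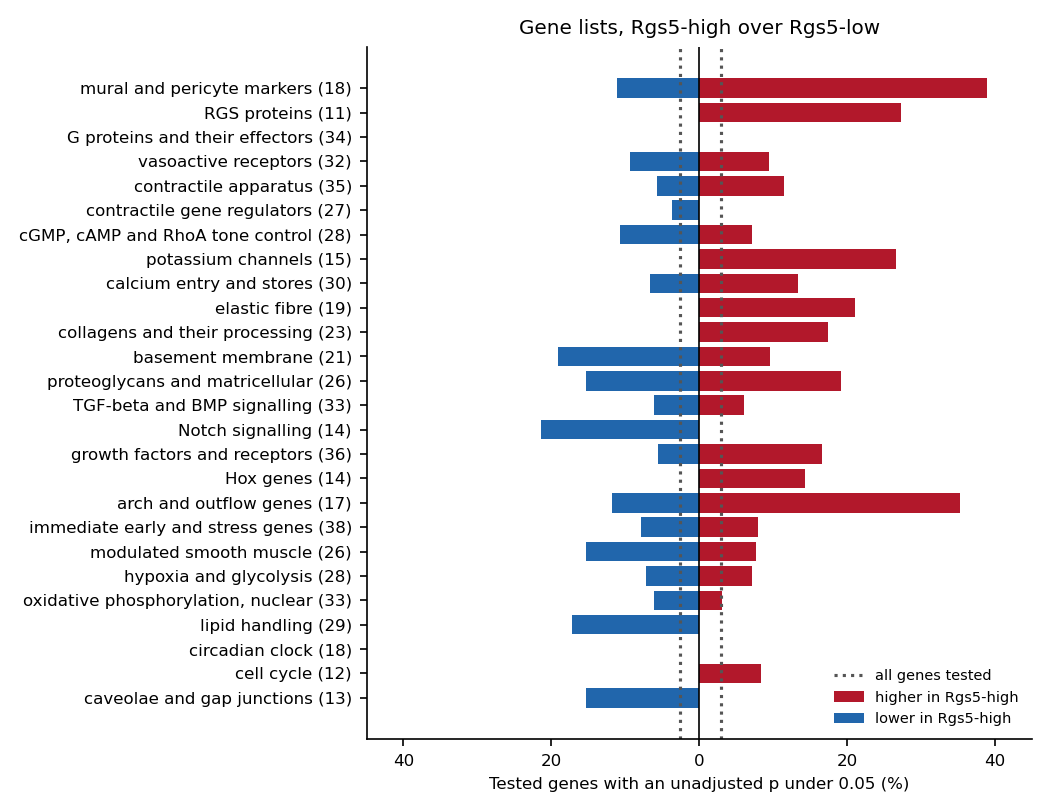
Share of the tested genes of each list (number tested in brackets) with an unadjusted edgeR p under 0.05, in percent, lower in Rgs5-high cells to the left and higher to the right. Dotted lines mark the shares over all 14991 genes, 2.64% lower and 2.88% higher, and mural and pericyte markers had 7 higher and 2 lower of 18.

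No gene of the matrix lists was called by edgeR on all counts. DESeq2 called Fbln1 and Mfap5 of the elastic fibre list, Sparcl1 and Postn of the basement membrane list, 5 proteoglycan and matricellular genes (Prelp, Podn, Tnc, Ccn3 and Vtn) and 0 collagen genes, and edgeR in thinned cells called Sparcl1, Postn and Vtn. The list counts of this paragraph are at an unadjusted p under 0.05, at which 2.88% of all genes were higher and 2.64% lower. Of 19 elastic fibre genes, 4 were higher and 0 lower, with a median of 0.06 that was -0.11 without the Prss12 cells. Eln itself had 2732 and 2293 CPM in Rgs5-high and 2703 and 1901 CPM in Rgs5-low sums. Of 23 collagen genes, 4 were higher and 0 lower, with a median of 0.13, and Col6a1 had 637.5 and 451 CPM against 490.1 and 378 CPM. Of 21 basement membrane genes, 2 were higher and 4 lower, with a median of -0.08. Of 26 proteoglycan and matricellular genes, 5 were higher and 4 lower, with a median of 0.0088, and Prelp had 711 and 1010 CPM in Rgs5-high and 979 and 1229 CPM in Rgs5-low sums. Markers of fibroblasts, which make such matrix too, summed to 2136 and 2069 CPM in Rgs5-high and 2298 and 2229 CPM in Rgs5-low sums over 10 genes.

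Signalling lists were mixed. The counts in this paragraph are at an unadjusted p under 0.05, at which 2.88% of all genes were higher and 2.64% lower. After adjustment edgeR called 0 genes of these lists, and DESeq2 called Bmp4, Igfbp4, Sfrp2 and Egr2. Of 33 members of the TGF-beta and BMP list, 2 stood higher and 2 lower, with a median of 0.01, and of 14 Notch genes, 0 were higher and 3 lower, with a median of 0.15. Of 36 growth factors and receptors, 6 were higher and 2 lower, with a median of 0.04. Of 38 immediate early and stress genes, which dissociation of tissue can induce, 3 were higher and 3 lower, with a median of 0.05. Fos had 1049 and 839.8 CPM in Rgs5-high and 981 and 903 CPM in Rgs5-low sums, and Egr1 555 and 771 CPM against 438 and 603 CPM.

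Of 26 genes of modulated smooth muscle, a state that loses contractile character, 2 were higher and 4 lower, with a median of -0.11. This and the other counts of the paragraph are at an unadjusted p under 0.05, at which 2.88% of all genes were higher and 2.64% lower. After adjustment edgeR called 0 genes of these lists on all counts and Cxcl12 in thinned cells. DESeq2 called Lgals3, Vcam1, Cxcl12, Ndufa4l2, Ppargc1a and Cdkn1a. Lgals3, a lectin of that state, had 28.1 and 83.5 CPM in Rgs5-high and 154 and 115 CPM in Rgs5-low sums. Of 28 hypoxia and glycolysis genes, 2 were higher and 2 lower, with a median of 0.0027, and the lower genes were hypoxia-inducible factors. Hif1a had 229 and 349 CPM in Rgs5-high and 271 and 494 CPM in Rgs5-low sums, and Epas1 124 and 60.1 CPM against 178 and 102 CPM. Of 33 nuclear genes of oxidative phosphorylation, 1 was higher and 2 lower, with a median of -0.04. Of 29 lipid genes, 0 were higher and 5 lower, with a median of 0.01, and Plin4, a lipid droplet coat protein, had 206.5 and 128 CPM in Rgs5-high and 327 and 164 CPM in Rgs5-low sums. Of 18 clock genes, 0 were higher and 0 lower, with a median of -0.04, and of 12 cell cycle genes, 1 was higher and 0 lower, with a median of -0.10. That 1 gene, Cdkn1a, the cyclin-dependent kinase inhibitor p21, had 69.8 and 100.5 CPM in Rgs5-high and 21.2 and 40.5 CPM in Rgs5-low sums.

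Ranked over all smooth muscle cells of a plate (295 and 253 cells), the genes most like Rgs5 were Ncam1 with a mean Spearman rho of 0.25, Fibin with 0.23, Actg2 with 0.22, Cxcl12 with 0.20 and Parm1 with 0.20. Tsc22d1, Uaca, Gpsm2, Nudt4 and Rgs4 came next, down to 0.17. Among the least like were Bcam with -0.23, Sncg with -0.23, Tinagl1 with -0.22 and Gucy1a1 with -0.20. All are weak, and over 3693 genes the 5th to 95th percentile ran from -0.09 to 0.08. The ranks include the lowest pair of bins, which is not ordered by Rgs5 above background. The cells of a plate share library and depth, and the rho of Rgs5 with the total count of a cell was -0.0052 on plate aorta_594s and -0.12 on plate aorta_912s.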

How the data were processed

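Counts of reads per gene, deposited by the authors as 1 column per cell, were used as raw counts with no normalization. Per the submitters' processing notes, bcl2fastq, Bowtie, Bowtie2, Subread and featureCounts were used. No source used here gives their versions, the strand of counting or the treatment of duplicates. Of 46517 gene identifiers, 46005 carried a symbol (GENCODE M21, GRCm38). No doublet caller was run.

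CPM used each cell's total count. Counts were summed per plate and Rgs5 bin, giving 4 sums of 19741157 to 23284845 counts, and tested with edgeR 4.0.16 (TMM, filterByExpr, quasi-likelihood test, plate as block) in R 4.3.3. P-values were adjusted by Benjamini-Hochberg over 14991 genes, leaving out the 8 rule genes. Both groups of a plate come from 1 pool of mice, which is why plate was the block.

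Named genes were to be those called, with at least 50 CPM in both higher sums and a count in 20% of those cells. As none was called, the 8 with the smallest unadjusted p in each direction were taken, of which 2 are not reported here. Members and lists were chosen with earlier results of these data known. On simulated data of 14999 genes for this comparison, the fit recovered 50 of 50 genes raised and 50 of 50 lowered 4-fold, and 27 and 20 of 50 changed 2-fold. It called 154 genes, 7 of them falsely. The simulation gave every gene the same spread, changed only genes above a floor of counts and held no gene carried by single cells. Its recovery therefore does not carry over to the real sums. Alternatives included DESeq2 1.42.0, limma 3.58.1 (5 CPM added), other splits of Rgs5 and cells thinned to 50000 counts. Intervals are exact 95% binomial, and a share of 0 allows up to 3 cells.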

Additional observations from a re-analysis of the deposited data

How the results depend on the processing

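With 2 plates, the test has 1 degree of freedom for the spread, and depth per cell limits genes carried by few cells. The count of genes called, 0 in each direction with edgeR, was 65 higher and 47 lower with DESeq2, 7 higher and 5 lower in thinned cells, and 3 higher with no filter on low counts (Prss12, Gpx3 and Gm21861). All 29 other values of these counts were 0, including limma, the fit with no replicate block and those leaving out the Prss12 or Vtn cells, the last 2 settings being chosen after seeing the data. With 1 plate left there is no test, and the 14 named genes described kept their direction on each plate. Of the 266 values of these 14 genes, 244 kept direction and side of the threshold, 21 passed it and 1 turned, Gpx3 at -0.20 under the stricter smooth muscle rule. Other genes counted as turned were Pcolce (-0.16) and Igfbp5 (-0.71) under that rule. A changed sign was not counted where no fit called the gene and its main difference lay within 2 SE of 0. Tnnt2, for example, was at 0.885 (SE 0.743) in the main fit and at -0.581 on plate aorta_912s. Igfbp5 was also at -0.019 without the Vtn cells, and Frzb (-0.17) and Osr1 (-0.018) turned without the Prss12 cells. Against the bin above the lowest in place of the lowest, Wnt16 was at 0.10, Vcam1 at 0.081 and Des at 0.28. With cells split at the median of Rgs5, Des was at 0.13 and Fosl1 at 1.95, and Fosl1 was at 1.69 with wider tails and at 0.33 per bin in the trend. The causes were not tested. Of 494 list medians, 111 moved.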
